A study of Mus musculus with 32 samples.

Results

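Messenger RNA of E14 mouse embryonic stem cells was compared between 84 h after withdrawal of 2i and 0 h, when the cells were still in 2i, across all genes. The 4 libraries of this comparison, 2 per time, were chosen by their labels alone from the 32 libraries of a study that followed cells out of naive pluripotency from 2 starting media. E14 is an established line of blastocyst origin, and all groups are of this 1 line. Cells were plated on gelatin in N2B27, a serum-free medium, with the inhibitors, which were removed on the following day. The 84 h cells had thus been in N2B27 alone for 84 h. The 0 h cells were in N2B27 with 3 uM CHIR99021, which inhibits the kinase GSK3, and 1 uM PD0325901, which inhibits the kinase MEK. No LIF was added to either group. Further groups are used below: 2i at 12 to 72 h after withdrawal, and 2iL, which also holds the cytokine LIF, at 84 h after withdrawal and at 0 h. Withdrawal and the time spent in culture cannot be told apart in any of these comparisons.

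The 84 h libraries held 1358567 and 1760108 counts in genes, against 2618464 and 1868148 in the 0 h libraries. The libraries were read from the 3' end of poly(A) RNA, and levels are given in CPM, counts per 1000000 counts scaled with TMM factors, for replicate 1 and then replicate 2. Reads outside annotated genes made up 53.6% and 55.4% of uniquely aligned reads at 84 h, against 30.4% and 46.1% at 0 h. The share of counts on Gm42418, which overlaps ribosomal RNA, was 14.5% and 23.6% at 84 h, against 13.96% and 16.1% at 0 h. The part of these shares in the results below was not tested. Replicates differed by a median of 0.22 on the log2 scale at 84 h and 0.19 at 0 h. Of the other libraries of the fit, 36 h replicate 2 of the 2iL course held 7298 counts. A further 4 were reported earlier to stand apart, namely 12 h replicate 2 of the 2i course and, of the 2iL course, 48 h replicate 1, 84 h replicate 2 and 96 h replicate 1. Counts over all genes are given with and without them. Since the labels do not say whether replicates are separate cultures, a p-value here covers only the scatter among these libraries, which may be technical. Errors after ± are standard errors of log2 fold changes, with n = 2 libraries per group. Statements that the libraries of a gene do not overlap between times describe its 4 values and are no test. The share of all tested genes without overlap was not counted. Emb did not pass the test below. Its libraries did not overlap either, with 47.4 and 44.8 CPM at 84 h, against 44.3 and 42.1 CPM at 0 h. In a culture measured in bulk, fewer cells of a type and less RNA per cell cannot be told apart.

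Naive pluripotency is the state of the preimplantation epiblast. In culture it is held by blocking MEK, which lies on the path from FGF4 to differentiation, and by blocking GSK3, which lets beta-catenin build up and relieves repression by TCF7L1. Once both blocks are lifted in N2B27, which has no serum or added growth factor, mouse cells pass through a formative, postimplantation-like state and many then enter the neural lineage, the path that epiblast cells take where Nodal, Wnt and BMP signals are low.

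Among 11761 genes tested, 2053 (17.5%) were higher and 2013 (17.1%) were lower at 84 h than at 0 h, or 4066 (34.6%) in all. The test was edgeR's quasi-likelihood test with Benjamini-Hochberg adjustment, and "rose" and "fell" are used for an adjusted p under 0.05. The median log2 fold change, 84 h over 0 h, was -0.029 over all tested genes. The median size of a change was 1.89 on the log2 scale for genes that rose and 1.18 for genes that fell. Of the rises 957 were of at least 2 log2 units and 240 of at least 4, and of the falls 551 and 193. At 0 h 57 of the genes that rose had 0 counts, and at 84 h 78 of the genes that fell had none. The genes that rose held 11.3% and 9.93% of the counts of tested genes at 84 h, against 3.25% and 3.34% at 0 h. The genes that fell held 17.8% and 15.8% at 84 h, against 30.1% and 29.1% at 0 h. The remaining 7695 genes did not pass the test, 5090 of them with a log2 fold change of less than 0.5 in size. Of 214 lincRNA genes tested, 30 rose and 35 fell.

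The balance of rises and falls depended on the scaling. Of all calls 50.5% were rises with TMM factors, against 66.1% with DESeq2 (1612 higher, 826 lower) and 65.9% with RLE factors (2626 higher, 1361 lower). These scalings moved the median log2 fold change of all genes to 0.18 and 0.17. Without the library of 7298 counts the shares were 55.5% and 57.3%. Falls of less than this shift depend on the scaling. DESeq2 called fewer genes in all, and its counts for a list are given where they are lower by over 1.5 times. Without the shallow library and the 4 that stand apart more genes were called, 2542 higher and 2599 lower. Without 0 h replicate 1 the counts were 1314 higher and 1268 lower, and without 84 h replicate 2 they were 1566 and 1281.

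**Figure D1:**
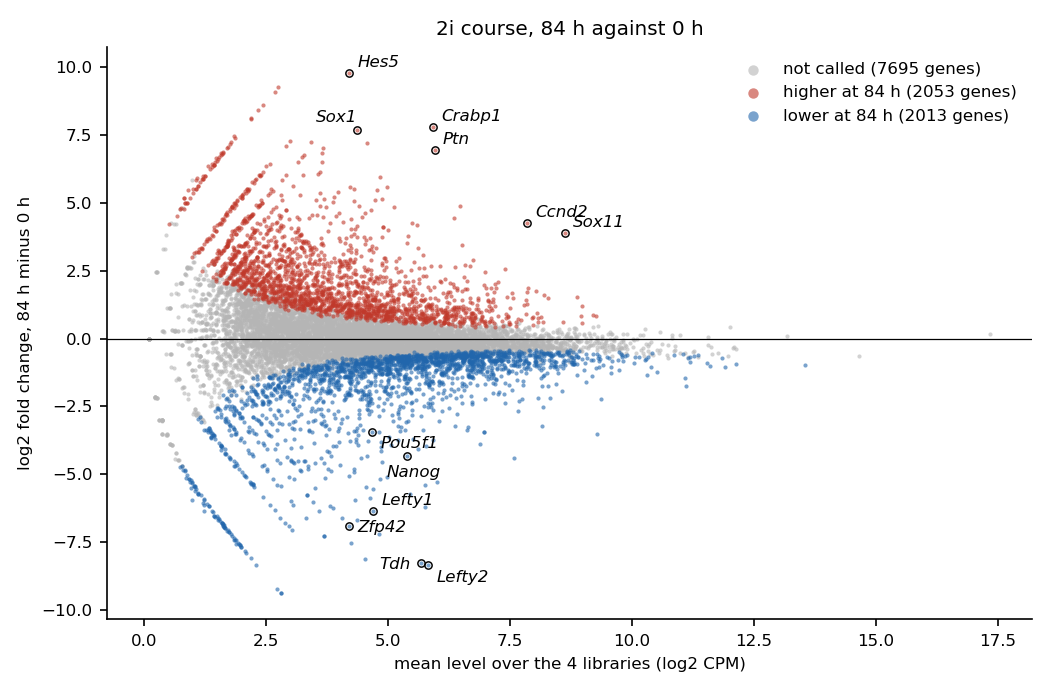
The log2 fold change of each of 11761 tested genes, 84 h over 0 h of the 2i course (vertical axis), is plotted against its mean log2 CPM over the 4 libraries (horizontal axis). Red points are the 2053 genes that rose, blue points the 2013 that fell and grey points the 7695 that did not pass the test. Hes5 and Sox1 lie at the top and Tdh and Lefty2 at the bottom.

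Genes known from the neural tube were among the largest rises. The 15 genes with the largest fitted rise, among those with a mean log2 CPM of at least 3 and groups that do not overlap, were Hes5, Crabp1, Sox1, Vgll3, Irx3, Fignl2, Ptn, Egr2, Btbd17, Zfp503, Lrrc8c, Zfp608, Greb1l, Foxb1 and Zbtb16. Hes5 (ENSMUSG00000048001, chr4:154960923-154962371) encodes a Notch effector that keeps neural progenitors from becoming neurons. It had 313 and 226 CPM at 84 h, against 0.406 and 0 CPM at 0 h. The 0 h libraries held a single read of Hes5, so its fold is given as a ratio of counts, 1120 (95% counting interval 201 to 44400). Fitted fold changes of genes with so few reads depend on the prior count and are no bounds. Crabp1 (ENSMUSG00000032291, chr9:54764748-54773110), a cytosolic retinoic acid binding protein, had 953 and 655 CPM at 84 h, against 2.84 and 4.55 CPM at 0 h, a log2 fold change of 7.79 ± 0.40 (adjusted p 1.38e-16, edgeR's quasi-likelihood test with Benjamini-Hochberg adjustment, as for all adjusted p-values here). Both 84 h libraries stood far above both 0 h libraries for either gene, although the naming rule required groups that do not overlap.

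Sox1 (ENSMUSG00000096014, chr8:12395295-12400126), a transcription factor that marks committed neural progenitors, had 194 and 223 CPM at 84 h, against 0.406 and 1.705 CPM at 0 h, a log2 fold change of 7.68 ± 0.38 (adjusted p 5.55e-17). Ptn, which encodes the secreted growth factor pleiotrophin, had 616 and 636 CPM at 84 h, against 3.65 and 6.82 CPM at 0 h (6.94 ± 0.29 log2 units). Irx3, a homeobox gene of the posterior neural tube, had 217 and 229 CPM at 84 h, against 0.812 and 2.27 CPM at 0 h (7.22 ± 0.38). None of these genes overlapped between times, which the rule for naming them required. Egr2, a zinc finger gene known from the hindbrain, had 77.2 and 103 CPM at 84 h, against 0.812 and 0.568 CPM at 0 h, a count ratio of 128 (95% counting interval 43.4 to 625). Zfp503 had 51.3 and 60.2 CPM at 84 h, against 0.406 and 0.568 CPM at 0 h and a count ratio of 118 (95% counting interval 32.3 to 985). Zbtb16, a zinc finger gene active in early neural progenitors, had 56.4 and 46.4 CPM at 84 h, against 0.812 and 0.568 CPM at 0 h and a count ratio of 71.8 (95% counting interval 24.2 to 352). These genes were at or near 0 CPM in both 0 h libraries. Foxb1, a forkhead gene of the early neural tube, had 60.3 and 77.4 CPM at 84 h, against 0.406 and 1.705 CPM at 0 h (6.08 ± 0.44 log2 units).

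The largest falls were of Lefty2, Tdh, Fbxo15, Rpl10l, Tdgf1, 1700097N02Rik, Lncenc1, Rps6kl1, Zfp42, Mylpf, Triml2, Tdrd12, Lefty1, Tcl1 and Dusp27. Lefty2 (ENSMUSG00000066652, chr1:180893108-180899103), a secreted inhibitor of Nodal, had 4.54 and 1.11 CPM at 84 h, against 931 and 875 CPM at 0 h, a log2 fold change of -8.35 ± 0.33 (adjusted p 4.71e-19). Lefty1 (ENSMUSG00000038793, chr1:180935022-180938400) had 3.89 and 1.11 CPM at 84 h, against 223 and 186 CPM at 0 h (-6.38 ± 0.42). Lefty1 and Lefty2 are near-identical neighbours, so how reads were split between them is uncertain. Tdh (ENSMUSG00000021953, chr14:63492347-63509092), the threonine dehydrogenase on which mouse stem cells depend, had 3.24 and 1.66 CPM at 84 h, against 790.2 and 717 CPM at 0 h (-8.26 ± 0.39, adjusted p 2e-17). Zfp42, also called Rex1 and used as a reporter of the naive state (ENSMUSG00000051176, chr8:43295063-43306980), had 1.95 and 0.553 CPM at 84 h, against 165 and 139 CPM at 0 h (-6.91 ± 0.37). For all of these both 84 h libraries lay below both 0 h libraries, as the same naming rule required. Lncenc1, a noncoding RNA of naive cells, had 1.95 and 1.66 CPM at 84 h, against 272 and 278 CPM at 0 h (-7.21 ± 0.39). Fbxo15 had 0.649 and 1.11 CPM at 84 h, against 249.7 and 297 CPM at 0 h, with 0 h over 84 h a count ratio of 301 (95% counting interval 103 to 1460). Rpl10l (ENSMUSG00000060499, chr12:66283379-66284401), a retrotransposed copy of the ribosomal protein gene Rpl10, had 1.298 and 0.553 CPM at 84 h, against 173 and 184 CPM at 0 h, and the ratio of 0 h over 84 h was 198 (95% counting interval 67.5 to 963). Reads of such copies can be hard to tell from those of their parent gene.

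The 250 bases before the start of 4 genes named in the results are shown, from RefSeq promoters of build GRCm38.p6, each read 5' to 3' on the strand of its gene. Hes5 (chr4:154960673-154960922) stands for the largest rise, with the RBPJ motif GTGGGAA in capitals. Zfp42 (chr8:43307010-43307259) stands for the falling naive genes, with the octamer ATGCAAAT known as the OCT4 motif in capitals. Rpl10l (chr12:66284402-66284651) is shown with the ESRRB motif AAGGTCA. Sp5 (chr2:70474673-70474922), a direct target of beta-catenin, is shown with the TCF motif CTTTGAT.
Hes5: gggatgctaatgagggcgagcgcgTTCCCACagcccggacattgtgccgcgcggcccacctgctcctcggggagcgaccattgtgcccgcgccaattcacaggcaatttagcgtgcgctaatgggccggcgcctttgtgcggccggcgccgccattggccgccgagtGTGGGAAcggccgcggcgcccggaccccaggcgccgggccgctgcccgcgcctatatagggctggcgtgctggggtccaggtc
Zfp42: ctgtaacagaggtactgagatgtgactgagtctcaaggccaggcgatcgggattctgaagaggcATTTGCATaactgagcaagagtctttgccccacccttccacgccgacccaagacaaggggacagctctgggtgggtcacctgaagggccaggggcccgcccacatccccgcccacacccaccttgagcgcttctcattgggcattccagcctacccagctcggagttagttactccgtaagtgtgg
Rpl10l: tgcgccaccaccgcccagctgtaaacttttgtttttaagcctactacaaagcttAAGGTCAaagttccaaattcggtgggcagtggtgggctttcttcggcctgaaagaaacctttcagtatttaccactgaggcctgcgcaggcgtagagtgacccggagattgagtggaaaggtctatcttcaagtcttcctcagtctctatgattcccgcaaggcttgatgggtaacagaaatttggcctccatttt
Sp5: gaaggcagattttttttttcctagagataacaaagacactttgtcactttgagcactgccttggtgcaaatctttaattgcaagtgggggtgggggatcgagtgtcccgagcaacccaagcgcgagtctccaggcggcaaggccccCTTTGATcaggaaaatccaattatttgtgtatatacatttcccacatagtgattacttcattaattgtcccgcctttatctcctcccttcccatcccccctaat
Motifs were searched on both strands, and a match on the opposite strand reads as the reverse complement. The Hes5 window held GTGGGAA at 226 bases before the start on the opposite strand and at 83 bases on the same strand. The motif is in 5.42% of 32851 windows and, of the 15 largest rises, in 1 of the 11 with a window. The octamer was found 186 bases before the start of Zfp42, on the opposite strand. It is in 1.6% of windows, in 1 of 11 of the largest falls and in 1 of 11 of the largest rises, Egr2. AAGGTCA, found 196 bases before the start of Rpl10l, is in 4.08% of windows and in 2 of 11 of the largest falls. CTTTGAT, found 104 bases before the start of Sp5, is in 3.21% of windows and in 1 of 10 beta-catenin targets. The Hes5 window held 32 CG pairs, against 9 for Zfp42, 8 for Rpl10l, 6 for Sp5 and a median of 6 over all windows. A match is a description of the letters and not a bound site.

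**Figure D2:**
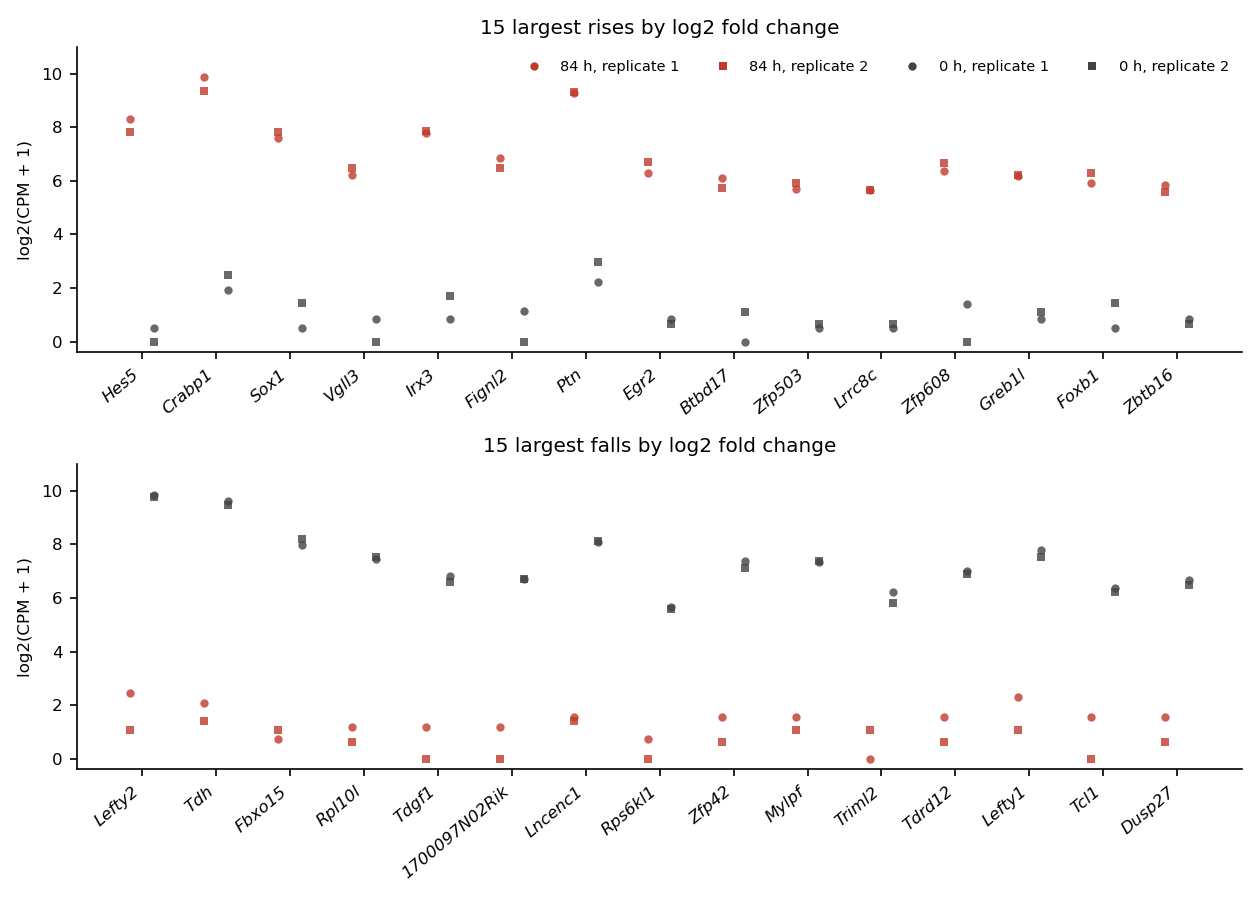
Levels in CPM on a log2(CPM + 1) scale are drawn for the 15 largest rises (upper panel) and the 15 largest falls (lower panel), with 84 h in red on the left of each gene and 0 h in dark grey on the right. Circles are replicate 1 and squares replicate 2. No gene overlaps between times, which the rule for naming them required.

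By absolute level the largest gains were of Sox11, Ccnd2, Crabp1, Ptn, Tuba1a, Prtg, Ttc3, Top1, Hmgcs1 and Sox4. Sox11 (ENSMUSG00000063632, chr12:27334264-27342574), a transcription factor of neural progenitors and young neurons, had 1529 and 1499 CPM at 84 h, against 99.1 and 104 CPM at 0 h, a log2 fold change of 3.899 ± 0.18 (adjusted p 1.43e-17). Ccnd2 (ENSMUSG00000000184, chr6:127125162-127152193), the D-type cyclin of neural progenitors, had 1039 and 974 CPM at 84 h, against 47.5 and 57.4 CPM at 0 h (4.27 ± 0.20, adjusted p 2.88e-17). For both genes each 84 h library was far above either 0 h library. Tuba1a, an alpha-tubulin of young neurons, had 863 and 731 CPM at 84 h, against 289 and 267 CPM at 0 h (1.52 ± 0.32). Prtg, which encodes protogenin, a surface receptor of the early neural tube, had 494 and 461 CPM at 84 h, against 18.3 and 13.1 CPM at 0 h (4.899 ± 0.26). Of the 10 largest losses in CPM, Hsp90aa1, a chaperone gene, had 1219 and 1188 CPM at 84 h, against 4169 and 3846 CPM at 0 h (-1.74 ± 0.28), and Eif2s2, a subunit of a translation initiation factor, had 1365 and 1245 CPM at 84 h, against 3518 and 3673 CPM at 0 h (-1.46 ± 0.24). Mt2, a metallothionein, had 169 and 199 CPM at 84 h, against 2142 and 2068 CPM at 0 h (-3.51 ± 0.32). These 3 falls held in every alternative run. The other 7 losses, 4 of them of ribosomal protein genes, had log2 fold changes of -1.04 to -0.73, and each lost the call when at least 1 of the 4 libraries was left out.

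The naive network was low at 84 h. Of 23 naive genes 21 fell, 1 rose and 1 did not pass the test, with a median log2 fold change of -5.30, or -5.17 with the 2 genes at 0 counts set at their bounds. The summed level of the list was 136 and 109 CPM at 84 h, against 3216 and 3058 CPM at 0 h. Nanog (ENSMUSG00000012396, chr6:122707489-122714633), a homeobox factor at the centre of the network, had 9.73 and 7.74 CPM at 84 h, against 179 and 177 CPM at 0 h (-4.35 ± 0.30, adjusted p 1.85e-13). Esrrb (ENSMUSG00000021255, chr12:86361117-86521628), an orphan nuclear receptor that GSK3 inhibition sustains, had 1.298 and 2.76 CPM at 84 h, against 139.7 and 126 CPM at 0 h (-5.95 ± 0.40). Tfcp2l1 (ENSMUSG00000026380, chr1:118627945-118685168), which links LIF and GSK3 inhibition to self-renewal, had 11.03 and 8.29 CPM at 84 h, against 372 and 389 CPM at 0 h (-5.302 ± 0.28). For all 3 genes each 84 h library was far under each 0 h library. Among the Kruppel-like factors Klf2 had 10.4 and 5.53 CPM at 84 h, against 347 and 315 CPM at 0 h (-5.395 ± 0.31). Klf4 had 25.3 and 11.6 CPM at 84 h, against 134 and 90.4 CPM at 0 h (-2.64 ± 0.33) and Klf5 had 17.5 and 16.6 CPM at 84 h, against 70.2 and 78.99 CPM at 0 h (-2.12 ± 0.27). Dppa3, a maternal factor that protects methylation marks, had 0 and 0 CPM at 84 h, against 42.6 and 47.2 CPM at 0 h, at least 49.7-fold lower at 84 h against a floor of 3 counts over the group. Fgf4 (ENSMUSG00000050917, chr7:144847367-144865243), the growth factor that drives ERK in these cells, had 4.54 and 3.87 CPM at 84 h, against 145 and 161 CPM at 0 h (-5.17 ± 0.35). The 1 member that rose was Gbx2, a homeobox gene of the naive list that also patterns the hindbrain, with 19.5 and 18.2 CPM at 84 h, against 4.47 and 2.27 CPM at 0 h (2.396 ± 0.42, adjusted p 3.17e-05). Tet2, a dioxygenase that oxidises 5-methylcytosine, had 9.73 and 9.396 CPM at 84 h, against 13.4 and 18.2 CPM at 0 h and did not pass the test (-0.701 ± 0.38).

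Most general pluripotency factors fell as well. Of 14 genes 10 fell, 1 rose and 3 did not pass the test, with a median of -2.42 and a summed level of 1235 and 1262 CPM at 84 h, against 3279 and 3269.8 CPM at 0 h. Pou5f1 (ENSMUSG00000024406, chr17:35506018-35510772), which encodes OCT4, had 13.6 and 2.76 CPM at 84 h, against 80.8 and 90.4 CPM at 0 h (-3.43 ± 0.47, adjusted p 5.65e-07). Sox2 (ENSMUSG00000074637, chr3:34650405-34652461), which serves both pluripotent and neural cells, had 296 and 311 CPM at 84 h, against 936 and 905 CPM at 0 h (-1.601 ± 0.19, adjusted p 2.63e-08). The 84 h replicates of Pou5f1 differed widely, but both lay under both 0 h libraries, as did those of Sox2. Utf1, a chromatin protein of pluripotent cells, had 5.19 and 3.32 CPM at 84 h, against 85.7 and 93.2 CPM at 0 h (-4.39 ± 0.31), and L1td1, an RNA-binding protein of such cells, had 39.6 and 42.6 CPM at 84 h, against 866 and 889.9 CPM at 0 h (-4.41 ± 0.27). Dppa2 and Dppa4, partners that prime developmental genes, had log2 fold changes of -4.69 ± 0.44 and -3.44 ± 0.25. Lin28a (ENSMUSG00000050966, chr4:134003330-134018841), which blocks maturation of let-7 miRNAs, rose to 318 and 318 CPM at 84 h, against 96.6 and 129 CPM at 0 h (1.502 ± 0.19, adjusted p 1.21e-07). Trim71 had 263 and 276 CPM at 84 h, against 255 and 229.6 CPM at 0 h and did not pass the test.

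Formative genes split. Of 16 genes of the formative epiblast, the state between naive and primed cells, 5 rose and 7 fell, with a median of -0.31. Otx2 (ENSMUSG00000021848, chr14:48657677-48673819), which opens formative enhancers together with OCT4, had 9.73 and 9.396 CPM at 84 h, against 134 and 122 CPM at 0 h (-3.73 ± 0.26, adjusted p 1.88e-13). Pou3f1 (ENSMUSG00000090125, chr4:124656807-124660655), a POU factor of the formative epiblast that promotes neural fate, had 60.3 and 93.4 CPM at 84 h, against 4.06 and 9.09 CPM at 0 h (3.62 ± 0.29, adjusted p 4.25e-12). Sox3, a SoxB1 factor of epiblast and neural cells, had 201 and 188 CPM at 84 h, against 2.03 and 4.55 CPM at 0 h (5.94 ± 0.62). The 84 h libraries stood below the 0 h libraries for Otx2 and above them for Pou3f1 and Sox3. Fgf5, the usual marker of this state, had only 8 reads at 84 h and 3 at 0 h, a ratio of 3.36 (95% counting interval 0.807 to 19.7). Among writers and erasers of DNA methylation 4 of 9 fell and 1 rose (median -0.70). The de novo methyltransferase genes Dnmt3a and Dnmt3b had log2 fold changes of -0.89 ± 0.20 and -0.896 ± 0.21. Their cofactor gene Dnmt3l had 2.595 and 2.76 CPM at 84 h, against 158 and 164 CPM at 0 h (-5.87 ± 0.39). Tet1, a dioxygenase of pluripotent cells, had 57.7 and 58.03 CPM at 84 h, against 287 and 255 CPM at 0 h (-2.23 ± 0.27), while Tet3, which neural cells use, had 42.8 and 48.1 CPM at 84 h, against 2.03 and 3.98 CPM at 0 h (3.96 ± 0.41). Dnmt3l and Tet1 were thus lower and Tet3 higher at 84 h, with no overlap.

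**Figure D3:**
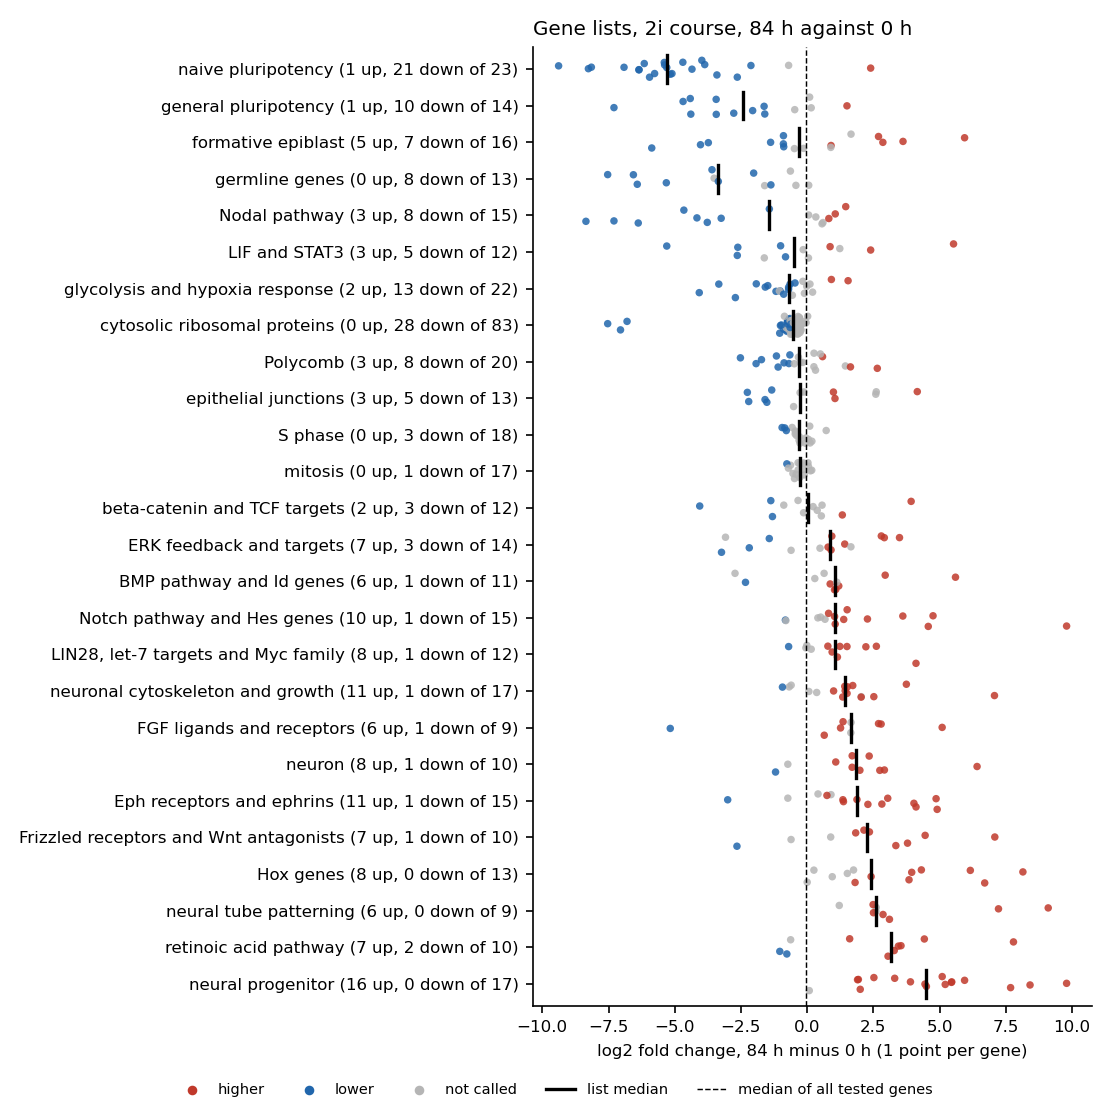
Each point is the log2 fold change, 84 h over 0 h, of 1 tested gene in 1 of 26 gene lists, red where it rose, blue where it fell and grey where it did not pass the test. Black bars are list medians and the dashed line is the median of all tested genes, -0.029. The neural progenitor list has the median 4.50 and the naive list -5.30.

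The ligand, coreceptor and inhibitor genes of the Nodal pathway fell. Nodal and its ligand relatives signal through activin receptors and SMAD2 and SMAD3 to hold the postimplantation epiblast and to block neural fate. Of 15 tested members 8 fell and 3 rose (median -1.43), and the summed level was 492 and 389 CPM at 84 h, against 1785 and 1673 CPM at 0 h. The ligand gene Nodal (ENSMUSG00000037171, chr10:61417972-61425338) had 3.24 and 2.21 CPM at 84 h, against 74.3 and 64.2 CPM at 0 h (-4.66 ± 0.38, adjusted p 8.78e-12). Gdf3, a ligand of the same family, had 8.44 and 4.42 CPM at 84 h, against 106 and 122 CPM at 0 h (-4.16 ± 0.29). Tdgf1 (ENSMUSG00000032494, chr9:110939603-110946158), the coreceptor also called Cripto, had 1.298 and 0 CPM at 84 h, against 113 and 94.9 CPM at 0 h, a count ratio of 0 h over 84 h of 177 (95% counting interval 48.7 to 1470). All of these were lower in each 84 h library. The inhibitory SMAD gene Smad7 had 5.19 and 6.63 CPM at 84 h, against 85.3 and 78.99 CPM at 0 h (-3.77 ± 0.36). Members that rose were not the ligands: Acvr2b, a type II receptor, had 211 and 160.3 CPM at 84 h, against 92.2 and 85.2 CPM at 0 h (1.06 ± 0.18), and Smad4, the SMAD shared with the BMP pathway, had 109 and 93.4 CPM at 84 h, against 57.3 and 57.4 CPM at 0 h (0.82 ± 0.19).

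LIF and STAT3 genes moved both ways, with 3 of 12 higher and 5 lower (median -0.48), against 17.5% and 17.1% of all tested genes. Of the 3 rises, that of Socs3 rests on 10 reads at 84 h and 0 at 0 h, at least 4.2-fold higher at 84 h. Lifr (ENSMUSG00000054263, chr15:7090614-7197489), the LIF receptor gene, had 6.49 and 9.396 CPM at 84 h, against 51.97 and 47.2 CPM at 0 h (-2.62 ± 0.33, adjusted p 1.33e-07). Over the list the count of rises was 1 without 0 h replicate 1, and that of falls was 3 without 84 h replicate 1, without 84 h replicate 2 and with DESeq2. Lifr held its call throughout.

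Targets of beta-catenin, which CHIR99021 stabilises, rose and fell at shares not far from those of all tested genes. Of 12 tested of 15, 2 rose and 3 fell, against 17.5% and 17.1% of all tested genes, and the median of 0.04 changed sign with the setting, between -0.20 and 0.25. Axin2, a feedback inhibitor and the usual readout of the pathway, had 15.6 and 10.5 CPM at 84 h, against 36.1 and 30.7 CPM at 0 h (-1.37 ± 0.39, adjusted p 0.00567). Sp5, whose promoter is shown above, had 10.4 and 12.7 CPM at 84 h, against 28.8 and 28.98 CPM at 0 h (-1.31 ± 0.38, adjusted p 0.00763). Both were lower at 84 h without overlap, but Axin2 lost its call without 0 h replicate 1 (adjusted p 0.061) or 84 h replicate 2 (0.105), and Sp5 without 84 h replicate 1 (0.078). With DESeq2 the adjusted p was 0.134 for Axin2 and 0.367 for Sp5. Notum, which encodes an enzyme that inactivates Wnt proteins, had 1.298 and 0.553 CPM at 84 h, against 17.1 and 14.8 CPM at 0 h, and 0 h over 84 h was 18 (95% counting interval 5.9 to 89.4). Nkd1, another feedback gene of the pathway, rose, with 9.08 and 14.4 CPM at 84 h, against 0.406 and 1.14 CPM at 0 h and a ratio of 16.8 (95% counting interval 5.35 to 84.9). The brachyury gene T had 14.3 and 20.5 CPM at 84 h, against 14.6 and 15.3 CPM at 0 h, and did not pass the test. Over the list 1 gene rose without 0 h replicate 1, without 0 h replicate 2, without 84 h replicate 1 and with DESeq2, which gave 1 fall.

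Most Wnt receptors and secreted antagonists rose. Of 10 tested of 16, 7 rose and 1 fell (median 2.25), with summed levels of 659 and 612 CPM at 84 h, against 146 and 184 CPM at 0 h. Frizzled genes encode Wnt receptors. Fzd3 had 159 and 140.4 CPM at 84 h, against 8.93 and 13.1 CPM at 0 h (3.79 ± 0.35), Fzd2 172 and 133 CPM at 84 h, against 15.4 and 14.2 CPM at 0 h (3.35 ± 0.29) and Fzd7 34.4 and 39.8 CPM at 84 h, against 4.47 and 10.8 CPM at 0 h (2.35 ± 0.30). Fzd5 was the 1 that fell, with 5.84 and 3.87 CPM at 84 h, against 29.2 and 31.8 CPM at 0 h (-2.65 ± 0.32). Secreted Frizzled-related proteins bind Wnts outside the cell. Sfrp1 had 173 and 185 CPM at 84 h, against 40.2 and 61.4 CPM at 0 h (1.83 ± 0.27, adjusted p 1.32e-06) and Sfrp2 16.9 and 24.9 CPM at 84 h, against 5.28 and 3.98 CPM at 0 h (2.14 ± 0.44). Frzb, a further antagonist, had 42.8 and 39.8 CPM at 84 h, against 0 and 0.568 CPM at 0 h, a count ratio of 174 (95% counting interval 30.7 to 6920). The named receptors and antagonists were thus higher in both 84 h libraries, with the exception of Fzd5.

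Genes under ERK, which PD0325901 keeps low by blocking MEK, were mixed at 84 h. Of 14 tested feedback and target genes 7 rose and 3 fell (median 0.84). The phosphatase genes Dusp4 and Dusp5 had 9.08 and 23.2 CPM at 84 h, against 2.03 and 2.27 CPM at 0 h (2.91 ± 0.47) and 57.7 and 85.7 CPM at 84 h, against 6.903 and 5.68 CPM at 0 h (3.48 ± 0.33). Phlda1, an immediate target, had 24.01 and 26.5 CPM at 84 h, against 2.84 and 4.55 CPM at 0 h (2.798 ± 0.38). Each of these was higher in both 84 h libraries. Etv5, an ETS factor that FGF induces, had 31.8 and 21.6 CPM at 84 h, against 239.6 and 259.7 CPM at 0 h (-3.23 ± 0.23). The count of rises was 4 without 0 h replicate 2 and without 84 h replicate 2, and DESeq2 gave 1 fall. Dusp6, the usual readout of ERK, had 38.3 and 45.3 CPM at 84 h, against 15.4 and 15.9 CPM at 0 h (adjusted p 0.0357) and lost its call without each of the 4 libraries in turn (adjusted p 0.0651 to 0.158). Of 9 tested FGF ligands and receptors 6 rose and 1, Fgf4, fell. The rises were 3 without 0 h replicate 1 and without 84 h replicate 2.

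Among BMP genes, which in the embryo oppose neural fate, 6 of 11 tested rose and 1 fell (median 1.03), with 3 rises without 0 h replicate 1. The Id genes encode inhibitors of basic helix-loop-helix factors and are direct BMP targets. Id2 (ENSMUSG00000020644, chr12:25093799-25097140) had 173 and 223 CPM at 84 h, against 4.06 and 3.98 CPM at 0 h (5.598 ± 0.29, adjusted p 1.19e-16), and Id1 had 56.4 and 42.01 CPM at 84 h, against 3.25 and 10.2 CPM at 0 h (2.94 ± 0.34). Id4 had 9.73 and 10.5 CPM at 84 h, against 47.1 and 55.7 CPM at 0 h (-2.33 ± 0.34). Id1 and Id2 were higher and Id4 was lower in both 84 h libraries. Smad5, a transducer of BMP receptors, had 93.4 and 92.9 CPM at 84 h, against 36.5 and 45.5 CPM at 0 h (1.19 ± 0.24).

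Most Notch genes rose. Of 15 tested, 10 rose and 1 fell (median 1.06), and the summed level was 802 and 631 CPM at 84 h, against 207 and 197 CPM at 0 h. Without 0 h replicate 2 the rises were 6, and the 1 fall, of the glycosyltransferase gene Rfng, was lost without 0 h replicate 1, 0 h replicate 2 or 84 h replicate 2, and with DESeq2. Among ligands, Dll1 had 11.7 and 13.8 CPM at 84 h, against 0.406 and 0.568 CPM at 0 h, a ratio of 27.1 (95% counting interval 7.06 to 231), and Jag1 had 85.6 and 69.1 CPM at 84 h, against 36.1 and 38.1 CPM at 0 h (1.06 ± 0.24). Lfng (ENSMUSG00000029570, chr5:140607320-140615545), a glycosyltransferase that sets which ligands the receptors answer to, had 132 and 103 CPM at 84 h, against 3.25 and 5.68 CPM at 0 h (4.75 ± 0.44, adjusted p 1.9e-10). Hes3, an effector of early neural progenitors, had 28.5 and 30.4 CPM at 84 h, against 2.84 and 1.705 CPM at 0 h (3.61 ± 0.43), and Nrarp, a feedback target, had 19.5 and 17.7 CPM at 84 h, against 7.31 and 6.82 CPM at 0 h (1.38 ± 0.40). Hes5, described first, belongs to this list. None of the named members overlapped between times.

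Genes of the retinoic acid pathway, which patterns the hindbrain and spinal cord, showed some of the largest changes. Of 10 tested of 16, 7 rose and 2 fell (median 3.17), with a summed level of 1568 and 1269.6 CPM at 84 h, against 197 and 217 CPM at 0 h. Crabp2, which carries retinoic acid to its receptors, had 62.9 and 52.5 CPM at 84 h, against 6.497 and 7.39 CPM at 0 h (3.05 ± 0.45). Cyp26b1 (ENSMUSG00000063415, chr6:84571414-84593908), which degrades retinoic acid, had 106 and 76.8 CPM at 84 h, against 0.406 and 9.09 CPM at 0 h (4.42 ± 0.51, adjusted p 2.18e-08). The TALE homeobox genes Meis1 and Meis2, targets of the pathway and partners of Hox proteins, had 36.3 and 21.003 CPM at 84 h, against 2.44 and 3.41 CPM at 0 h (3.29 ± 0.60) and 287 and 307 CPM at 84 h, against 24.4 and 30.7 CPM at 0 h (3.44 ± 0.23). Each was higher in both 84 h libraries than in either 0 h library, although Cyp26b1 differed widely between the 0 h replicates. The falls were of the receptor genes Rara and Rarg, with 9.08 and 19.3 CPM at 84 h, against 30.9 and 28.4 CPM at 0 h (-1.03 ± 0.32) and 41.5 and 51.95 CPM at 84 h, against 75.1 and 85.2 CPM at 0 h (-0.77 ± 0.26). The list had no fall without 0 h replicate 1, without 84 h replicate 1 and with DESeq2, and 1 without 0 h replicate 2.

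Nearly all neural progenitor genes rose. Of 17 genes 16 rose and none fell, with a median log2 fold change of 4.50 and a summed level of 3490.1 and 3368 CPM at 84 h, against 308 and 368 CPM at 0 h. Sox21, a repressor that follows SoxB1 factors, had 72.7 and 72.96 CPM at 84 h, against 1.62 and 2.27 CPM at 0 h (5.21 ± 0.51). Pax6 (ENSMUSG00000027168, chr2:105668900-105697364), a paired box factor of forebrain, eye and spinal cord progenitors, had 57.1 and 52.5 CPM at 84 h, against 12.6 and 5.68 CPM at 0 h (2.52 ± 0.36, adjusted p 1.12e-06). Nes, which encodes the progenitor filament nestin, had 79.2 and 72.4 CPM at 84 h, against 21.9 and 18.2 CPM at 0 h (1.901 ± 0.22). All 3 were higher at 84 h without overlap. Cdh2 (ENSMUSG00000024304, chr18:16588877-16809246), N-cadherin, which neural cells take up as they give up E-cadherin, had 89.5 and 96.7 CPM at 84 h, against 3.25 and 5.11 CPM at 0 h (4.4997 ± 0.35, adjusted p 2.47e-12). Nr2f1, an orphan nuclear receptor that patterns the neural tube, had 159.6 and 126 CPM at 84 h, against 2.03 and 6.82 CPM at 0 h (5.097 ± 0.43). Fabp7, a fatty acid binding protein of radial glia, had 25.3 and 20.5 CPM at 84 h, against 0 and 0 CPM at 0 h, at least 31.9-fold higher at 84 h. Pou3f2 and Zic1, transcription factors of the neural plate, had count ratios of 50.4 (95% counting interval 13.5 to 423) and 55.5 (95% counting interval 9.45 to 2240). Vim, the filament gene vimentin, had 114 and 144 CPM at 84 h, against 108 and 137 CPM at 0 h and did not pass the test (0.08 ± 0.20).

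Regional identity was uneven. Of 23 neural tube patterning genes 9 had enough reads to be tested, and 6 of these rose (median 2.603). Irx3, above, and Irx5, both of the posterior neural plate, led this list. Irx5 had 37.6 and 35.9 CPM at 84 h, against 0 and 0 CPM at 0 h, at least 51.7-fold higher at 84 h. Named markers of the most anterior plate had few reads: over both libraries Six3 had 0 reads at 84 h and 4 at 0 h, Lhx2 16 and 1, and Hesx1 0 at either time. The floor plate gene Shh and the ventral genes Olig2 and Nkx2-2 had 0 reads at 84 h. A count of 0 over a group allows up to 3 reads. Not all such genes were silent. Nkx6-2, also ventral, rose, with 22 reads at 84 h and 3 at 0 h, a ratio of 9.24 (95% counting interval 2.78 to 48.2). Foxa2, of the floor plate, and Olig3 rose as well, but neither held its call in every alternative run. Of 39 Hox genes, which set position from hindbrain to tail, 13 were tested and 8 rose (median 2.41). The summed level was 149 and 141 CPM at 84 h, against 24.8 and 42.6 CPM at 0 h. Hoxa2, of the hindbrain, had 15.6 and 22.1 CPM at 84 h, against 0 and 0 CPM at 0 h, at least 26.9-fold higher at 84 h, and Hoxb2 had 27.3 and 16.6 CPM at 84 h, against 0 and 0.568 CPM at 0 h, a ratio of 90.7 (95% counting interval 15.8 to 3630). The count was 4 of the 13 without 0 h replicate 1 and 5 with DESeq2.

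Most neuron markers also rose. Of 10 tested of 15 neuron markers 8 rose and 1 fell (median 1.84). Stmn2, a microtubule regulator of growing neurites, had 226 and 268 CPM at 84 h, against 66.999 and 56.8 CPM at 0 h (1.99 ± 0.28), and Gap43, a growth cone protein, had 61.6 and 67.98 CPM at 84 h, against 8.12 and 9.09 CPM at 0 h (2.91 ± 0.27). The neuronal RNA-binding protein genes Elavl3 and Elavl4 had 15.6 and 19.9 CPM at 84 h, against 2.44 and 2.84 CPM at 0 h (2.74 ± 0.37) and 15.6 and 16.6 CPM at 84 h, against 2.03 and 4.55 CPM at 0 h (2.34 ± 0.53). These were all higher in both 84 h libraries. Ina, a neuronal intermediate filament, fell, with 25.95 and 44.8 CPM at 84 h, against 84.5 and 78.99 CPM at 0 h (-1.19 ± 0.22). Tubb3, the beta-tubulin used as a pan-neuronal marker, had 44.8 and 35.9 CPM at 84 h, against 55.6 and 78.99 CPM at 0 h and did not pass the test (-0.73 ± 0.33). Of 17 genes of the neuronal cytoskeleton and growth, 11 rose and 1 fell (median 1.43). Dpysl3, of the growth cone, had 59.04 and 54.2 CPM at 84 h, against 7.71 and 12.5 CPM at 0 h (2.52 ± 0.30), and Map1b, a microtubule-binding protein, 564 and 476 CPM at 84 h, against 199 and 167 CPM at 0 h (1.505 ± 0.19). The 1 fall, of Stmn1, was lost without 84 h replicate 2 and with DESeq2.

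Markers of mesoderm, endoderm and trophectoderm were few and low. Of 14 primitive streak and mesoderm genes 8 were tested, of which Lhx1 and Gsc rose. None rose without 0 h replicate 1, and 1 did without 0 h replicate 2, without 84 h replicate 1 and with DESeq2. Their summed level was 120.0 and 102 CPM at 84 h, against 103 and 104 CPM at 0 h. Of 12 endoderm genes only Cxcr4 and Dab2 had enough reads, and both rose. The call of Dab2 was lost without 0 h replicate 1, 0 h replicate 2 or 84 h replicate 2, and with DESeq2. Cxcr4, a chemokine receptor that neural cells also use, had 19.5 and 19.3 CPM at 84 h, against 1.62 and 2.27 CPM at 0 h (3.303 ± 0.69). The summed level of the endoderm list was 27.9 and 31.5 CPM at 84 h, against 4.47 and 6.25 CPM at 0 h. Trophectoderm genes summed to 71.4 and 59.7 CPM at 84 h, against 249 and 239.8 CPM at 0 h, and 2 of 6 tested rose and 2 fell. The rises were 0 without 0 h replicate 1, without 84 h replicate 1 and with DESeq2, and 1 without the other 2 libraries in turn, and the falls were 1 without 0 h replicate 2, without 84 h replicate 1 and with DESeq2. Neural crest genes rose in 5 of 7 tested and fell in 1, or in 0 with DESeq2 (median 2.75). Pax3, of dorsal neural tube and crest, had 27.3 and 22.1 CPM at 84 h, against 0.406 and 0 CPM at 0 h, a ratio of 103 (95% counting interval 18 to 4130), and Pax7 had 16.2 and 14.4 CPM at 84 h, against 1.22 and 1.14 CPM at 0 h (3.62 ± 0.75). Surface ectoderm genes summed to 13.6 and 16.03 CPM at 84 h, against 22.7 and 32.96 CPM at 0 h, and 1 of 8 was tested, Tfap2a, which fell (-1.56 ± 0.40) but lost its call with DESeq2 (adjusted p 0.0699). No marker of 2-cell-like cells had enough reads to be tested. Histone variants (2 of 12 higher, 1 lower) and long noncoding RNAs (1 of 10 higher, 3 lower) had medians that changed sign between alternatives. The count of histone variant genes lower was between 0, with DESeq2 and without each of the 4 libraries in turn, and 4, in the fit of the 2i course alone, and that of long noncoding RNAs lower was 1 without 84 h replicate 2.

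Fibroblast and mesenchymal genes rose in 7 of 9 tested, with none lower and a summed level of 295 and 277 CPM at 84 h, against 28.02 and 38.6 CPM at 0 h (median 2.22, 4 rises without 0 h replicate 1). The members with the highest levels at 84 h, Zeb2 and Zeb1, are repressors of E-cadherin that neural progenitors express as well. Zeb2 (ENSMUSG00000026872, chr2:44983632-45117395) had 200.5 and 169.7 CPM at 84 h, against 2.44 and 11.4 CPM at 0 h (4.86 ± 0.43, adjusted p 6.07e-11), and Zeb1 had 55.8 and 60.8 CPM at 84 h, against 18.7 and 15.3 CPM at 0 h (1.76 ± 0.29). Acta2, the smooth muscle actin, had the largest fitted rise of the list, with 13.6 and 9.95 CPM at 84 h, against 0.406 and 0 CPM at 0 h and a ratio of 49.2 (95% counting interval 8.32 to 1990). Col1a1, the collagen of connective tissue, had only 37 reads at 84 h and 2 at 0 h, a ratio of 23.3 (95% counting interval 6.01 to 200). The part of such cells in the results was not tested.

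Epithelial junction genes moved in both directions. Of 13, 5 fell and 3 rose (median -0.27), and the summed level was 417 and 385 CPM at 84 h, against 1236 and 1214 CPM at 0 h. Cdh1 (ENSMUSG00000000303, chr8:106603351-106670246), E-cadherin, had 167 and 131 CPM at 84 h, against 701 and 672 CPM at 0 h (-2.21 ± 0.24, adjusted p 4.5e-09). Epcam, an adhesion protein of epithelial and pluripotent cells, had 36.98 and 40.3 CPM at 84 h, against 118 and 116 CPM at 0 h (-1.59 ± 0.18), and Esrp1, which sets epithelial splicing, had 5.19 and 10.5 CPM at 84 h, against 23.1 and 17.05 CPM at 0 h (-1.34 ± 0.30). For each of these the 84 h libraries were both lower. Krt18, a simple epithelial keratin, rose to 25.95 and 18.8 CPM at 84 h, against 1.22 and 1.14 CPM at 0 h (4.16 ± 0.53). The rises were 1 without 0 h replicate 1, without 0 h replicate 2 and without 84 h replicate 2, and Krt18 held its call throughout.

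Of 19 tested matrix and integrin genes 9 rose and 6 fell (median 0.37). Fn1, fibronectin, had 89.5 and 59.1 CPM at 84 h, against 424 and 344 CPM at 0 h (-2.38 ± 0.22), and Nid2, a basement membrane linker, had 10.4 and 13.3 CPM at 84 h, against 124 and 103 CPM at 0 h (-3.25 ± 0.29). Col4a1, the basement membrane collagen, had 31.1 and 39.2 CPM at 84 h, against 2.44 and 3.98 CPM at 0 h (3.48 ± 0.35). Fn1 and Nid2 were lower and Col4a1 higher at 84 h without overlap. The rises were 4 without 0 h replicate 1, and the falls were 3 without 84 h replicate 2 and 2 with DESeq2 or RLE factors. Eph receptors and ephrins, contact signals that sort cells at boundaries, rose in 11 of 15 tested and fell in 1 (median 1.88), with a summed level of 874 and 907 CPM at 84 h, against 292 and 296 CPM at 0 h. Among receptors Ephb1 had 62.3 and 52.5 CPM at 84 h, against 1.62 and 2.27 CPM at 0 h (4.87 ± 0.38) and Epha7 72.7 and 75.2 CPM at 84 h, against 5.28 and 3.41 CPM at 0 h (4.03 ± 0.34). Among ligands Efna5 had 51.3 and 52.5 CPM at 84 h, against 1.22 and 2.27 CPM at 0 h (4.91 ± 0.43) and Efnb2 92.8 and 138 CPM at 84 h, against 6.497 and 6.82 CPM at 0 h (4.11 ± 0.33). Epha2, the receptor that fell, had 5.84 and 1.66 CPM at 84 h, against 33.7 and 24.4 CPM at 0 h (-3.001 ± 0.53). The 4 genes that rose were each higher in both 84 h libraries.

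In a list of LIN28 genes, let-7 targets and the Myc family, 8 of 12 tested rose and 1 fell (median 1.04). LIN28 proteins stop let-7 miRNAs from maturing, and HMGA2 and IGF2BP proteins are classic let-7 targets. Lin28b had 88.9 and 80.1 CPM at 84 h, against 13.4 and 14.2 CPM at 0 h (2.61 ± 0.22), Hmga2 119 and 111 CPM at 84 h, against 6.903 and 6.25 CPM at 0 h (4.11 ± 0.29) and Igf2bp3 322 and 355 CPM at 84 h, against 153 and 135 CPM at 0 h (1.23 ± 0.17). Mycl, a Myc family member, had 33.1 and 32.6 CPM at 84 h, against 8.53 and 5.11 CPM at 0 h (2.22 ± 0.35). All 4 were higher at 84 h without overlap. Hmga1 and Igf2bp1 hardly changed, with log2 fold changes of -0.05 and -0.01. The part of LIN28 or let-7 in these levels was not tested. The 1 fall, of Mycn, was lost without each of the 4 libraries in turn and with DESeq2 or RLE factors.

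Of 20 tested Polycomb genes 8 fell and 3 rose (median -0.30), and DESeq2 called 4 lower. Suz12, a core subunit of PRC2, had 117 and 123 CPM at 84 h, against 428 and 364 CPM at 0 h (-1.73 ± 0.20), and its cofactors Mtf2 and Jarid2 had 188 and 198 CPM at 84 h, against 753 and 718 CPM at 0 h (-1.93 ± 0.24) and 170.0 and 203 CPM at 84 h, against 404 and 397 CPM at 0 h (-1.098 ± 0.19). Of the chromodomain subunits of PRC1, Cbx7, typical of stem cells, had 22.7 and 23.2 CPM at 84 h, against 149 and 115 CPM at 0 h (-2.52 ± 0.39), while Cbx2 had 75.3 and 73.5 CPM at 84 h, against 12.2 and 11.4 CPM at 0 h (2.65 ± 0.24). Cbx2 was higher and the other 4 were lower in both 84 h libraries. The rises were 1 without 0 h replicate 1 and without 84 h replicate 2.

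Of 20 tested imprinted genes, which are expressed from 1 parental allele, 10 rose and 3 fell (median 0.87). Mest had 298 and 277 CPM at 84 h, against 31.7 and 46.6 CPM at 0 h (2.89 ± 0.21), Grb10, a growth inhibitor, 128 and 171 CPM at 84 h, against 18.3 and 17.05 CPM at 0 h (3.08 ± 0.23) and Peg12 85.6 and 74.1 CPM at 84 h, against 8.93 and 11.4 CPM at 0 h (2.98 ± 0.35). Peg10, of retrotransposon origin, had 33.7 and 28.2 CPM at 84 h, against 93.8 and 110.2 CPM at 0 h (-1.72 ± 0.26). Without 84 h replicate 2 there was 1 fall.

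Of 13 tested germline genes 8 fell and none rose (median -3.35, or -2.02 at the bounds). Ddx4, the germ cell helicase Vasa, had 1.95 and 4.42 CPM at 84 h, against 13.8 and 13.1 CPM at 0 h (-2.02 ± 0.46), and Stk31, a Tudor kinase of the testis, had 1.298 and 1.11 CPM at 84 h, against 15.02 and 15.3 CPM at 0 h (-3.59 ± 0.49). Dazl, a germ cell RNA-binding protein, had 0 and 0 CPM at 84 h, against 6.09 and 5.11 CPM at 0 h, at least 6.35-fold lower at 84 h.

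The counts of cell cycle genes that changed depended on the fit. Of all tested genes 17.5% rose and 17.1% fell, and the shares of G1 rises and S phase falls were close to these. Of 16 tested G1 cyclins and inhibitors 3 rose and 4 fell, and the median of 0.01 changed sign between alternatives. DESeq2 called 1 lower. Cdk6, a partner of the D-type cyclins, fell to 21.4 and 22.7 CPM at 84 h, against 51.2 and 63.1 CPM at 0 h (-1.36 ± 0.23). Of 18 S phase genes 3 fell and of 17 mitotic genes 1 fell, with none higher in either list (medians -0.30 and -0.28). Without 84 h replicate 2 these counts were 1 and 0, and DESeq2 gave 0 and 0, while a fit of the 2i course alone gave 7 and 6. Mki67, the Ki-67 antigen of cycling cells, had 158 and 143 CPM at 84 h, against 138 and 138 CPM at 0 h (0.13 ± 0.21), and Top2a, the topoisomerase of mitosis, had 1035 and 1099 CPM at 84 h, against 1386 and 1319.5 CPM at 0 h (-0.34 ± 0.20). Neither passed the test. Of 17 p53 targets 6 rose and 3 fell (median 0.16), against 17.5% and 17.1% of all tested genes, with 0 falls with DESeq2. Members of this list went both ways. Cdkn1a, Bax and Sesn2 had log2 fold changes of -0.98, -0.80 and -0.79. Perp, a desmosomal protein, had 27.9 and 32.1 CPM at 84 h, against 4.06 and 2.84 CPM at 0 h (3.06 ± 0.33), and Bbc3, the proapoptotic PUMA, had 97.3 and 87.3 CPM at 84 h, against 21.9 and 20.5 CPM at 0 h (2.11 ± 0.38).

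Genes of glycolysis and the hypoxia response, taken as a single list, fell in 13 of 22 tested and rose in 2 (median -0.70). Their summed level was 2418 and 2622 CPM at 84 h, against 4515 and 4231 CPM at 0 h. With DESeq2 8 fell. Pfkp, the platelet isoform of phosphofructokinase, had 11.7 and 11.1 CPM at 84 h, against 209.9 and 174 CPM at 0 h (-4.07 ± 0.31). Pdk1, a pyruvate dehydrogenase kinase, had 16.2 and 11.6 CPM at 84 h, against 90.96 and 90.4 CPM at 0 h (-2.71 ± 0.30). Eno1, an enolase, had 72.02 and 85.1 CPM at 84 h, against 233 and 209 CPM at 0 h (-1.49 ± 0.22), and Aldoa, an aldolase, had 319 and 366 CPM at 84 h, against 795 and 755 CPM at 0 h (-1.18 ± 0.19). All 4 were lower in both 84 h libraries. The rises, of Slc2a1 and Vegfa, were both lost without 0 h replicate 2 or 84 h replicate 1. Of 22 cholesterol and fatty acid synthesis genes 4 rose and none fell. Of 22 genes of the ATF4 response 4 rose and 3 fell, or 1 with DESeq2 and up to 6 in other fits. The shares of these lists that rose, and of the ATF4 list that fell, were close to the 17.5% and 17.1% of all tested genes. Asns, asparagine synthetase, had 29.2 and 43.7 CPM at 84 h, against 140.5 and 131 CPM at 0 h (-1.89 ± 0.24), and Ddit3, the stress factor CHOP, had 149 and 143 CPM at 84 h, against 26.4 and 18.8 CPM at 0 h (2.67 ± 0.28).

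Cytosolic ribosomal protein genes were lower as a group by a small margin. Of 83 tested 28 fell and none rose (median -0.54), and their summed level was 72209.8 and 69715 CPM at 84 h, against 112989 and 109607 CPM at 0 h. The median stayed between -0.60 and -0.33 over all alternatives, but the count of falls did not stay close. It was 5 with DESeq2, 13 with RLE factors, 9 to 16 when a library of the comparison was left out (9 without 0 h replicate 1, 16 without 0 h replicate 2, 10 without 84 h replicate 1 and 9 without 84 h replicate 2), and 67 without the 5 libraries reported to be shallow or to stand apart. Many ribosomal protein genes have retrotransposed copies, so their counts are uncertain. Of 11 tested mRNAs of the mitochondrial genome 4 fell (median -0.31). The complex I subunit genes mt-Nd1, mt-Nd2 and mt-Nd4 had log2 fold changes of -1.06 ± 0.20, -1.15 ± 0.26 and -1.06 ± 0.26.

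Gene lists differed in the time at which 50% of the change at 84 h was first passed. Among genes with a change of at least 1 log2 unit and a mean log2 CPM of at least 3, the first sampled time at which the mean log2 level was past 50% of the change was recorded. Its median was 48 h for 956 genes that rose and 36 h for 855 that fell. By 24 h 27.4% of the rises and 38.9% of the falls had passed this midpoint, and 37.8% of the rises and 34.9% of the falls passed it at 60 h or later. Of the 16 naive genes that could be placed, 9 passed it at 24 h, while 7 of 9 general pluripotency genes passed it at 72 h. Of 7 Nodal genes that fell, 3 passed it at 12 h. Among the genes that rose, the median was 36 h for 7 neuron markers, 48 h for 13 neural progenitor genes, 66 h for 6 Notch genes and 72 h for 7 retinoic acid genes. These times describe the 2i course and were not tested. They do not give the time at which the 84 h level was reached, since a gene can move past that level or back after the midpoint.

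Several genes did not move steadily between 0 and 84 h. Nanog had 179 and 177 CPM at 0 h, 67.02 and 47.9 at 12 h, 5.35 and 4.52 at 36 h, 44.8 and 29.2 at 60 h and 9.73 and 7.74 at 84 h, so that it passed through a minimum and a second, lower maximum. Lefty2 had 931 and 875 CPM at 0 h and 5.64 and 8.16 at 12 h. Pou5f1 had 80.8 and 90.4 CPM at 0 h, 52.01 and 68.5 at 48 h, 14.6 and 24.7 at 72 h and 13.6 and 2.76 at 84 h. These genes thus reached their low levels early in the case of Lefty2 and late in that of Pou5f1. Otx2 had 134 and 122 CPM at 0 h, 506 and 457 at 24 h and 9.73 and 9.396 at 84 h. Dnmt3b had 314 and 317 at 0 h, 2072 and 2048 at 36 h and 166 and 172 at 84 h, and Pou3f1 had 4.06 and 9.09 at 0 h, 530.1 and 534 at 48 h and 60.3 and 93.4 at 84 h. A comparison of the end points alone therefore shows Otx2 and Dnmt3b as falls although both stood higher in between. Cdh1 likewise had 701 and 672 CPM at 0 h, 1038 and 1034 at 36 h and 167 and 131 at 84 h.

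By the rule for intermediate peaks, the genes that stood highest above both ends were Vax2, Halr1, Gm525, Fgf5, Enpp2 and Wt1. Fgf5 had 0.406 and 1.14 CPM at 0 h, 54.1 and 46.7 at 36 h and 2.595 and 2.21 at 84 h. Vax2, a homeobox gene of the ventral eye, had 1.22 and 1.14 CPM at 0 h, 87.5 and 135 at 12 h and 1.298 and 1.66 at 84 h. Halr1, a noncoding RNA beside the HoxA cluster, had 5.68 and 5.68 CPM at 0 h, 128 and 146 at 12 h and 0.649 and 2.21 at 84 h. Each had passed its peak and was far below it at 84 h. The deepest intermediate troughs were of Nkx1-2, Nrp2, Cpeb1, Fzd10, Chd3 and Egr1. That of Egr1 rests on 0 h replicate 1, with 309 and 1.14 CPM at 0 h. Nkx1-2, a homeobox gene of neuromesodermal cells, had 54.8 and 55.1 CPM at 0 h, 0.706 and 2.04 at 12 h and 59.04 and 35.9 at 84 h. Fzd10, a Wnt receptor gene, had 37.4 and 44.3 CPM at 0 h, 1.19 and 2.26 at 36 h and 28.5 and 24.9 at 84 h. Sp5 had 28.8 and 28.98 CPM at 0 h, 0 and 0 at 36 h, 12.4 and 7.16 at 60 h and 10.4 and 12.7 at 84 h, and Axin2 36.1 and 30.7 at 0 h, 1.19 and 3.77 at 36 h and 15.6 and 10.5 at 84 h. These Wnt-related genes were lowest in the middle of the course.

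**Figure D4:**
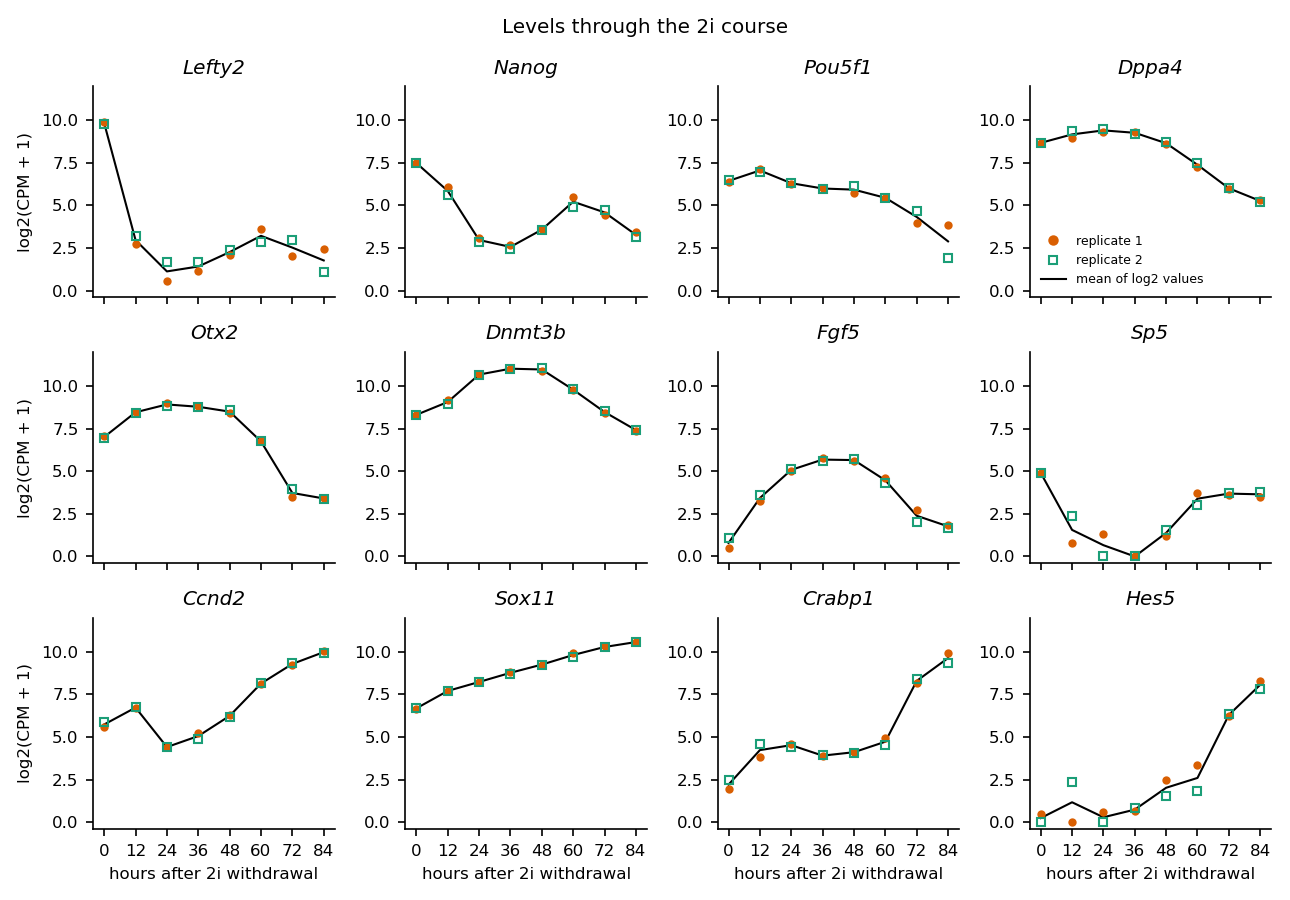
Levels of 12 genes in the 2i course are drawn as log2(CPM + 1) against hours after withdrawal, with orange circles for replicate 1, open green squares for replicate 2 and a line through the mean of the log2 values. Otx2, Dnmt3b and Fgf5 rise and fall again, Nanog has a low second maximum at 60 h, and Hes5 and Crabp1 reach their highest level at 84 h.

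The last 12 h were set apart by comparing 84 h with 72 h of the same course. At this step 10 genes (0.085% of 11761) were higher and 8 (0.068%) were lower, 18 (0.153%) in all, around a median log2 fold change of -0.0022. At an unadjusted p under 0.05 there were 801. The rises were of Hes5, Crabp1, Cyp26b1, Nr2f1, Nr2f2, Epha7, Insl6, Jak2, Mest and Hist1h1e. Hes5 had 313 and 226 CPM at 84 h, against 75.4 and 79.6 CPM at 72 h (1.80 ± 0.29, adjusted p 0.0029), and Cyp26b1 had 106 and 76.8 CPM at 84 h, against 18.999 and 22.4 CPM at 72 h (2.14 ± 0.43, adjusted p 0.0237). The orphan receptor genes Nr2f1 and Nr2f2 had 159.6 and 126 CPM at 84 h, against 34.2 and 41.7 CPM at 72 h (1.91 ± 0.33) and 170.0 and 154 CPM at 84 h, against 43.1 and 47.1 CPM at 72 h (1.85 ± 0.35). For each of these the 84 h libraries lay above the 72 h libraries. Insl6 and Jak2, neighbours on chromosome 19 that do not overlap, had 33.7 and 42.01 CPM at 84 h, against 3.17 and 3.09 CPM at 72 h (3.57 ± 0.54) and 39.6 and 43.7 CPM at 84 h, against 11.4 and 16.999 CPM at 72 h (1.56 ± 0.34). The falls were of Cdh1, Dnmt3b, Fbxo15, Esrp1, Arl4c, Rpp40, Gng3 and L1td1. Cdh1 had 167 and 131 CPM at 84 h, against 334 and 333 CPM at 72 h (-1.17 ± 0.24, adjusted p 0.0237), and L1td1 had 39.6 and 42.6 CPM at 84 h, against 89.3 and 106 CPM at 72 h (-1.24 ± 0.27). Both were lower in each 84 h library. The number of these calls depended on the libraries and the fit: edgeR gave 0 and 0 without 72 h replicate 1 (672 genes at an unadjusted p under 0.05), 1 and 0 without 72 h replicate 2, 3 and 0 without 84 h replicate 1, and 5 and 1 without 84 h replicate 2. DESeq2 gave 3 higher and 0 lower. Without the 5 libraries reported to be shallow or to stand apart there were 52 and 72.

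The 2iL course, whose cells had started with LIF as well, was set beside the 2i course at the same end time. The change from 0 to 84 h in the 2i course minus that in the 2iL course was tested in a single contrast. It was positive for 561 genes (4.77%) and negative for 784 (6.67%), 1345 (11.4%) in all, with a median of -0.026. One of the 2iL 84 h libraries, replicate 2, is among those reported to stand apart. Without it the counts were 380 and 525, and without all 5 such libraries 632 and 872. Leaving out 2iL 84 h replicate 1 gave 853 and 964, and leaving out any other library of the contrast gave 383 to 473 positive and 478 to 544 negative. The split also depended on the scaling, with 296 positive and 256 negative by DESeq2 and 786 and 562 with RLE factors, or 412 and 606, and 610 and 744, once the library of 7298 counts was left out.

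The 6 positive differences with the smallest p were of Camk2n1, Hmga2, Epha4, Ablim1, Rgma and Fabp3. Camk2n1, an inhibitor of CaM kinase II, had 57.1 and 43.7 CPM at 84 h, against 4.87 and 5.68 CPM at 0 h in the 2i course. In the 2iL course it had 6.92 and 5.003 CPM at 84 h, against 72.6 and 68.4 CPM at 0 h. The difference of the changes was 6.79 ± 0.39 log2 units (adjusted p 8.27e-15, n = 2 libraries per group). It was thus higher at 84 h than at 0 h with 2i and lower with 2iL. Hmga2, a chromatin protein of progenitors, had 119 and 111 CPM at 84 h, against 6.903 and 6.25 CPM at 0 h in the 2i course. In the 2iL course it had 15.97 and 15.6 CPM at 84 h, against 45.3 and 30.3 CPM at 0 h, a difference of 5.37 ± 0.41. Epha4, an Eph receptor, had 228 and 221 CPM at 84 h, against 79.2 and 97.7 CPM at 0 h with 2i and 34.1 and 30.6 CPM at 84 h, against 162 and 182 CPM at 0 h, with 2iL (3.76 ± 0.32). For both genes the 2i course ended above and the 2iL course below its start. Ablim1, an actin-binding protein, Rgma, a guidance molecule, and Fabp3 differed by 5.33 ± 0.46, 3.95 ± 0.35 and 4.34 ± 0.38.

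The 6 negative differences with the smallest p were of Otx2, Epcam, Utf1, Dnmt3b, Cgnl1 and Emb. Otx2 had 9.73 and 9.396 CPM at 84 h, against 134 and 122 CPM at 0 h in the 2i course. In the 2iL course Otx2 had 329 and 391 CPM at 84 h, against 44.4 and 54.3 CPM at 0 h, and the difference was -6.599 ± 0.32 (adjusted p 3.28e-16). Dnmt3b had 166 and 172 CPM at 84 h, against 314 and 317 CPM at 0 h with 2i and 1622 and 1309 CPM at 84 h, against 65.8 and 64.7 CPM at 0 h, with 2iL (-5.38 ± 0.30). These formative genes were lower than at the start after 84 h without 2i and higher after 84 h without 2iL. Utf1 had 5.19 and 3.32 CPM at 84 h, against 85.7 and 93.2 CPM at 0 h with 2i and 112 and 100.1 CPM at 84 h, against 11.96 and 18.6 CPM at 0 h, with 2iL (-7.19 ± 0.39). Epcam and Cgnl1, of epithelial adhesion and junctions, differed by -5.02 ± 0.26 and -6.27 ± 0.39. Emb, an adhesion protein, had 47.4 and 44.8 CPM at 84 h, against 44.3 and 42.1 CPM at 0 h with 2i, which did not pass the test, and 207 and 225 CPM at 84 h, against 8.12 and 7.696 CPM at 0 h, with 2iL (-4.67 ± 0.31). All 12 differences kept their sign under all 17 alternatives. The genes were picked by the p of this difference in these same libraries, so this is no separate support.

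By list, the difference between courses was negative for 12 of 16 formative genes and positive for none, and negative for 7 and positive for 1 of 14 general pluripotency genes. It was positive for 8 of 12 LIF and STAT3 genes and negative for none, positive for 7 of 13 Hox genes and negative for none, and positive for 6 and negative for 1 of 17 neural progenitor genes. It was negative for 10 and positive for 3 of 22 glycolysis and hypoxia response genes. Of all tested genes it was positive for 4.77% and negative for 6.67%. A positive difference need not mean a rise in the 2i course, since a fall in the 2iL course gives one too. Stat3 had log2 fold changes of 0.05 with 2i and -2.75 with 2iL, while Msi1, of the neural progenitor list, had 3.30 and 0.27.

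**Figure D5:**
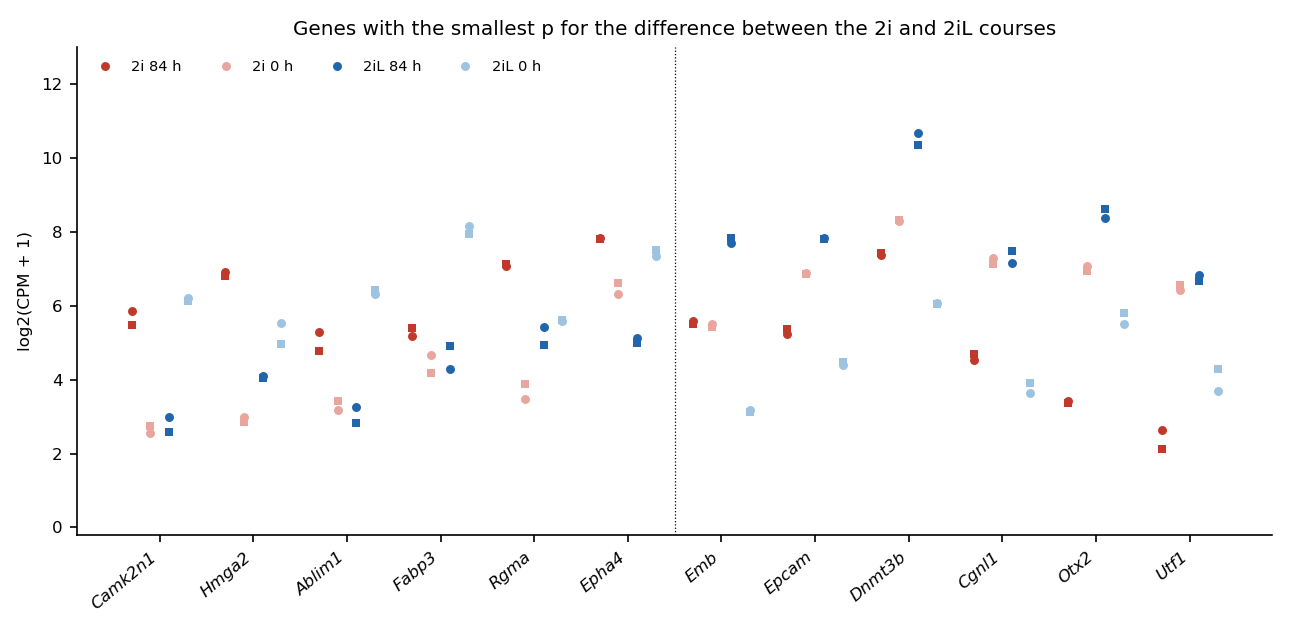
Levels of the 12 genes named above for the difference between courses are drawn as log2(CPM + 1), in red for 2i 84 h, pale red for 2i 0 h, blue for 2iL 84 h and pale blue for 2iL 0 h, with 1 point per library. Genes left of the dotted line have a positive and genes right of it a negative difference; Otx2 and Dnmt3b are below their start at 84 h in the 2i course and above it in the 2iL course.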

How the data were processed

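Poly(A) RNA of E14 cells was sequenced as 3' digital libraries, 32 in all, with 2 per group. Per the submitters' processing notes, reads passed through bcl2fastq, STAR 2.6.0a and HTSeq on mouse build mm10. The annotation release and the strand setting are not given in the sources used here, so reads of overlapping genes cannot be told apart. The authors deposited a whole-number count per gene and library, and a table of CPM, counts per 1000000, which was recomputed from the counts with a largest difference of 4.7e-10 and otherwise not used. The 5 summary lines of each count file were left out of library sizes. Gene symbols and coordinates come from GENCODE M21 on the build of the files, and promoters from RefSeq.

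Counts were fitted with edgeR 4.0.16 in R 4.3.3, with TMM factors and filterByExpr, in a single quasi-likelihood fit in which each of the 16 groups had its own mean and the 32 libraries shared the estimate of the spread. Of 31053 genes 11761 were tested, with Benjamini-Hochberg adjustment over all of them and a threshold of 0.05. The contrasts were 84 h minus 0 h, 84 h minus 72 h, and the change from 0 to 84 h in the 2i course minus that in the 2iL course. A standard error is the size of the log2 fold change divided by the square root of F. Folds against 0 counts use a floor of 3 counts over the group, and counting intervals are exact 95% Clopper-Pearson intervals. Both cover counting error only, since the reads were not counted as molecules. On the TMM scale a floor of 3 counts is 1.95 and 1.66 CPM in the 84 h libraries, against 1.22 and 1.70 CPM in the 0 h libraries.

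Genes were named by rule: members of 43 lists with 745 genes, the 15 largest rises and falls with a mean log2 CPM of at least 3 (over the 4 libraries compared, prior count 2) and no overlap, the 10 largest rises and falls in CPM, the 6 genes of each sign with the smallest p of the course difference, and the 6 largest intermediate peaks and troughs (log2(mean CPM + 1), mean CPM of at least 20). The members, lists and rules were chosen with earlier results of these data known. In simulated data for 84 h against 0 h (10669 genes, 200 changed) the test called 95% of changes of 2 log2 units, 41% of 1 log2 unit and 3 of 10469 unchanged genes. The simulation gave every gene the same dispersion of 0.0215. It changed only genes above a minimum level, and far fewer than were called in the data. These rates need not hold for the measured counts. Alternatives were DESeq2 1.42.0, RLE factors, no filter, other sets of libraries in the fit, the replicate number as a block, and leaving out each library compared.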

Additional observations from a re-analysis of the deposited data

Results flagged for a closer look

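The change from 0 to 84 h differed between the 2i and the 2iL course, by edgeR's quasi-likelihood test of the difference itself, for the 12 genes named by rule. On the log2 scale the change in the 2i course minus that in the 2iL course was 6.79 for Camk2n1, 5.37 for Hmga2, 3.76 for Epha4, 5.33 for Ablim1, 3.95 for Rgma and 4.34 for Fabp3. It was -6.60 for Otx2, -5.02 for Epcam, -7.19 for Utf1, -5.38 for Dnmt3b, -6.27 for Cgnl1 and -4.67 for Emb. These genes were picked by the p of this difference and are not a sample of all genes. With 2 libraries per group no library could be tested for lying far from the others of its group.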

How the results depend on the processing

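For 84 h against 0 h, the count of genes higher was 1314 to 1843 and that of genes lower 1268 to 1596 when each of the 4 libraries was left out in turn, against 2053 and 2013 with all, and DESeq2 called 826 lower. In these fits the lone library of a group is assumed to vary like the other groups. For 84 h against 72 h, with 10 higher and 8 lower, the counts were 48 and 54 in a fit of the 2i course alone, 65 and 69 in a fit of the groups compared alone, 17 and 18 with no filter, 3 and 0 with DESeq2, and 52 and 72 without the 5 libraries reported to be shallow or to stand apart. Leaving out each library in turn gave 0 to 5 higher and 0 to 1 lower. For the difference between courses DESeq2 gave 296 positive and 256 negative, and leaving out each library in turn 380 to 853 positive and 478 to 964 negative. The cause of these moves was not tested.

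With the replicate block the counts were 2036 and 1998 for 84 h against 0 h, 10 and 7 for 84 h against 72 h, and 560 and 763 for the difference between courses. Replicate numbers were not taken to pair libraries: deviations of same-numbered 84 h and 0 h libraries correlated at -0.0005, and over all 120 pairs of groups the correlations ran from -0.56 to 0.62, with 13 over 0.1. Of 9071 values of single named genes under alternatives, 8210 stayed on their side of the threshold, 200 of these with a change of sign in genes called in neither setting. A further 555 lost the call, 305 gained it and 1 called change reversed. This was Egr1, with 55.2 and 15.5 CPM at 84 h, against 309 and 1.14 CPM at 0 h, whose log2 fold change of -2.19 was between -3.33 and 4.86 as each library was left out in turn, with 4.86 without 0 h replicate 1. Of 1204 list counts 164 moved by over 1.5 times. The settings that join RLE factors or DESeq2 with leaving out the library of 7298 counts were chosen after seeing the data. At the depth of these libraries a gene of 0 counts may have a level of up to 1.95 CPM.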
